A study of Mus musculus with 4 samples.

Results

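Diffuse tiles are 10 kb stretches of the genome that carried many RNA polymerase II (Pol II) tags without a peak. They were chosen on the tags of all 4 libraries together, as tiles of chromosomes 1 to 19 with 100 or more tags in which no 250 bp bin held over 12 tags. The rule kept 5416 of the 234924 autosomal tiles with a tag, or 2.31%, a length of 54.2 Mb. They were 29.8% of the 18184 tiles with 100 or more tags, and the other 12768 of these held a bin over 12 tags. Ordinary tiles and peak tiles serve for comparison. Ordinary tiles, 154358 in number, also had no bin over 12 tags and held 20 to 99 tags. Peak tiles, 15664 in number, held a bin over 12 tags whatever their total.

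DNA bound by Pol II was sequenced after immunoprecipitation (ChIP-seq) through the N-terminus of Rpb1, the largest Pol II subunit, from V6.5 mouse embryonic stem cells (C57BL/6-129 background). The groups, of 1 library each, were shSpt4, shSpt5 and shNelfE, named after the gene that a short hairpin RNA targeted, and shControl, with a control hairpin. Cells of all groups, shControl included, carried the hairpin for about 4 days and received 1 µM flavopiridol for 1 h before crosslinking. The labels give 2 passages off feeder cells for the knockdown cultures and 1 for shControl, and a run name for shControl that differs from the one the knockdown libraries share, so culture, run and knockdown cannot be told apart in a comparison with shControl.

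Pol II that starts transcription commonly stops a short way downstream, where DSIF, a complex of Spt4 and Spt5, and NELF, of which NelfE is a subunit, bind it. The kinase Cdk9 releases this paused Pol II into the gene body, where it is spread thinly over long distances, NELF leaves it, and DSIF travels on with it. Flavopiridol inhibits Cdk9. Peaks of Pol II are thus typical of promoters and low, even signal is typical of gene bodies, but no gene annotation of the build of these files (mm8) was used, so no diffuse tile was assigned to a gene.

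The libraries held 2646944 tags with shSpt4, 3116313 with shSpt5 and 2938052 with shNelfE, against 3170090 with shControl, counting 1 tag per position and strand. Levels are given as normalised tags, the tags of a tile per 1000000 tags of its library. Intervals are exact 95% intervals unless named otherwise and cover counting error only. Reads copied by PCR do not stand for separate molecules, and every ratio between libraries rests on 1 library per group with no replicate check. The whole cell extract that served as background in the study was not used here, so raised tags were not shown to be bound Pol II. Knockdown of the targeted genes could not be checked in these libraries.

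The total behind the rule was low in most diffuse tiles. Their tags in the 4 libraries together had a median of 113, quartiles of 105 and 126 and a range from 100 to 232. Exactly at the minimum of 100 tags were 277 tiles, and 280 tiles missed it by 1 tag. The tile at chromosome 1, 35160000 to 35169999, was kept and had 25 tags with shSpt4, 28 with shSpt5 and 23 with shNelfE, against 24 with shControl, whereas the one at chromosome 1, 13170000 to 13179999, was left out and had 24, 18, 25 and 32 in the same order of libraries. At the bin limit, 709 diffuse tiles had a largest bin of 12 tags, and 644 tiles with enough tags had one of 13. Both limits thus cut through a continuous range of tiles.

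Tags inside the diffuse tiles were spread over most of their bins. Of the 40 bins of 250 bp in a tile, 12.4% were empty in diffuse tiles, 42.4% in ordinary tiles and 22.3% in peak tiles. Both limits of the rule bear on these shares, which are a description. The placement of the fixed bins hid some clusters, since 1167 diffuse tiles (21.5%) held over 12 tags in a 250 bp window moved in steps of 50 bp. Enriched regions called on the pooled libraries touched 93 diffuse tiles (1.72%), 614 ordinary tiles (0.398%) and 12713 peak tiles (81.2%).

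In each library the diffuse tiles stood above the ordinary ones. The raw tags per diffuse tile had a median of 25 in shSpt4 (range 8 to 75), 27 in shSpt5 (8 to 62), 30 in shNelfE (12 to 80), against 34 in shControl (11 to 94). The mean level was 9.79 normalised tags with shSpt4, 8.73 with shSpt5 and 10.4 with shNelfE, against 11.0 with shControl. Ordinary tiles averaged 3.71, 4.01, 3.77 and 3.49 normalised tags in the same order of libraries, so there shControl was the lowest of the 4 rather than the highest. Diffuse tiles held 5.30% of all tags in shSpt4 (5.28 to 5.33%), 4.73% in shSpt5 (4.70 to 4.75%), 5.62% in shNelfE (5.60 to 5.65%), against 5.94% in shControl (5.91 to 5.96%).

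The rule used these same tags and so fixed that the tiles would be high. The independent measure is the level in a library that took no part in the choice. Tiles were then chosen on the other 3 libraries, with both limits scaled to their share of the tags. The bin limit was rounded down to whole tags, to 9 for shSpt4, 8 for shSpt5, 9 for shNelfE and 8 for shControl. The choice was therefore not equally strict for each library. Chosen in this way, 4993 tiles averaged 2.48-fold the ordinary level in shSpt4 (2.47 to 2.50). In shSpt5 the value was 1.97-fold over 4303 tiles (1.96 to 1.99), and in shNelfE 2.63-fold over 4823 tiles (2.61 to 2.64). In shControl it was 3.12-fold over 4057 tiles (3.10 to 3.13). The order of the libraries was the same with tiles chosen on all 4, at 2.64, 2.17, 2.75 and 3.14-fold. No scaling between libraries enters these folds. The contrast between diffuse and ordinary tiles was thus present in every library that had not been used to choose them, widest in shControl and narrowest in shSpt5.

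Not every single tile stood above 2 times the ordinary mean in the library left out of the choice. Of the tiles chosen on the other 3 libraries, 71.0% lay above 2 times the ordinary mean with shSpt4, 42.0% with shSpt5 and 80.3% with shNelfE, against 91.0% with shControl. Of ordinary tiles, 4.98% did so with shSpt4, 2.38% with shSpt5 and 5.21% with shNelfE, against 8.57% with shControl. At about 30 tags per tile and library, counting error alone spreads single tiles widely. In shSpt5 the chosen tiles averaged 24.7 tags and ordinary tiles 12.5, so their mean lay close to the cut itself. The shares thus follow the mean folds and do not show that tiles differed in their contrast.

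**Figure D1:**
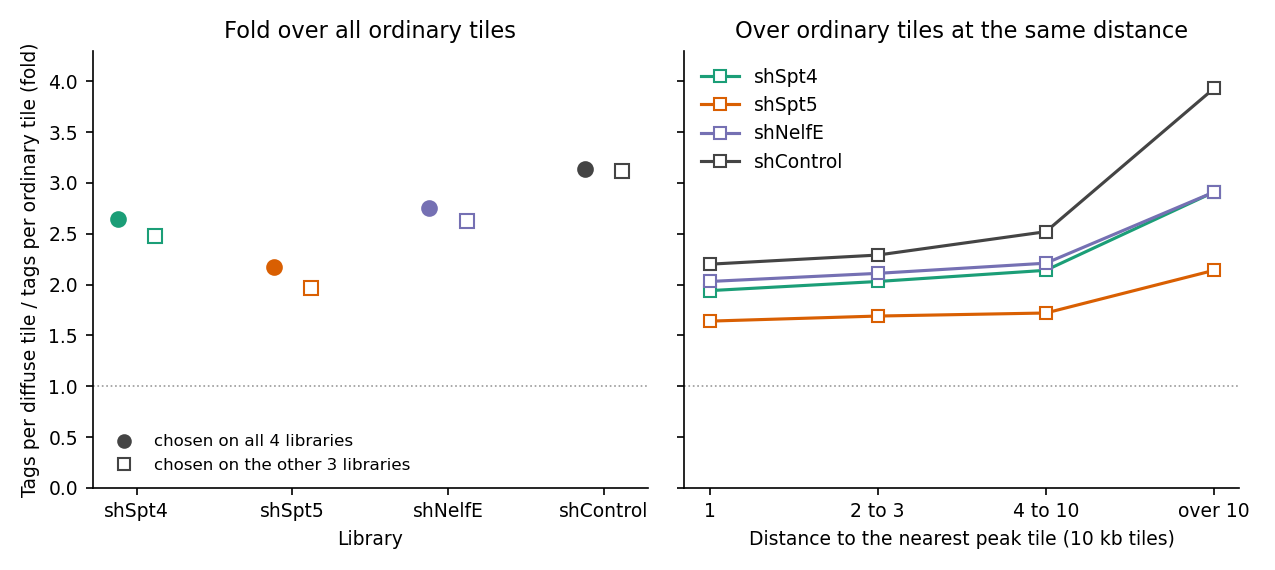
Mean tags per diffuse tile over mean tags per ordinary tile, in each library. Left, over all ordinary tiles, with tiles chosen on all 4 libraries (filled circles) or on the other 3 (open squares). Right, with tiles chosen on the other 3, against ordinary tiles at the same distance from the nearest peak tile. shSpt5 is lowest and shControl highest in both panels, and the fold in shControl is 2.20 beside peak tiles and 3.93 more than 10 tiles away.

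Diffuse tiles gathered near peaks. A peak tile lay directly beside 43.1% of them, against 11.3% of ordinary tiles, and another diffuse tile lay beside 39.6%, against 3.35%. The median distance to the nearest peak tile was 2 tiles for diffuse and 10 tiles for ordinary tiles. Of diffuse and ordinary tiles together, 11.8% were diffuse directly beside a peak tile, 6.66% at 2 to 3 tiles, 2.98% at 4 to 10 tiles and 0.382% beyond 10 tiles. The 292 diffuse tiles beyond 10 tiles, or 5.39% of all, reached as far as 364 tiles, or 3640 kb, from any peak tile. Tiles of one gene or stretch are not independent, and the ordinary level itself declined with distance.

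The contrast was present at every distance. Directly beside peak tiles, tiles chosen on the other 3 libraries had 1.94-fold the level of ordinary tiles at that distance with shSpt4, 1.64-fold with shSpt5 and 2.03-fold with shNelfE, against 2.20-fold with shControl. Beyond 10 tiles the folds were 2.91 with shSpt4, 2.14 with shSpt5 and 2.91 with shNelfE, against 3.93 with shControl. The ordinary tiles there were lower, at 3.07, 3.44, 3.06 and 2.68 normalised tags in the same order, than beside peaks, at 4.71, 4.98, 4.94 and 4.79. The wider folds far from peaks thus went with a lower ordinary level, while the diffuse tiles themselves had 9.56 to 9.90 normalised tags in shSpt4, against 10.6 to 11.3 in shControl across the 4 classes of distance.

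The raised level reached beyond the tile. Around tiles chosen on the other 3 libraries, and leaving out peak tiles, the level 10 kb toward higher coordinates was 1.92-fold ordinary with shSpt4, 1.63-fold with shSpt5 and 2.01-fold with shNelfE, against 2.29-fold with shControl. On the other side it was 1.93, 1.61, 2.01 and 2.30-fold, so the profile was even on both sides. At 100 kb it was still 1.52-fold with shSpt4, 1.37-fold with shSpt5 and 1.57-fold with shNelfE, against 1.78-fold with shControl. On average, the level in every library was thus highest at the tile and above the ordinary mean out to 100 kb. The tiles around included other diffuse tiles, and ordinary tiles were lower far from peaks than beside them. A domain around single tiles was therefore not shown.

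**Figure D2:**
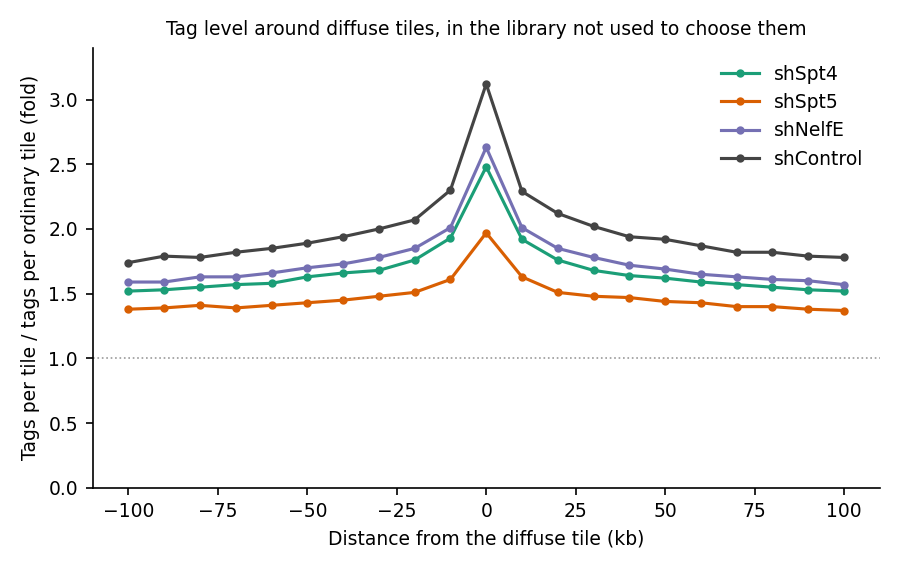
Mean tags per tile over the ordinary mean, by distance from the diffuse tile in kb, for tiles chosen on the other 3 libraries and without peak tiles. Each line is 1 library. All lines have their maximum at 0, from 1.97 in shSpt5 to 3.12 in shControl, and stay above 1 out to 100 kb on both sides.

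Inside the tile, the level sloped away from a peak. In the 1861 diffuse tiles with a peak tile on 1 side only, the kilobase nearest the peak tile had 1.07 normalised tags with shSpt4, 0.929 with shSpt5 and 1.14 with shNelfE, against 1.18 with shControl. The kilobase farthest from it had 0.883, 0.814, 0.968 and 1.01 in the same order. Diffuse tiles with no peak tile beside them averaged 0.972 normalised tags per kb with shSpt4, 0.859 with shSpt5 and 1.02 with shNelfE, against 1.07 with shControl. The slope across 10 kb was small beside the level itself. It was not particular to diffuse tiles. In ordinary tiles with a peak tile on 1 side only, the nearest kilobase had 0.524, 0.536, 0.542 and 0.535 in the same order of libraries. The farthest had 0.458, 0.483, 0.473 and 0.461.

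Some diffuse tiles joined into long stretches. The 5416 tiles formed 4147 stretches, of which 3271 were single tiles and 250 had 3 tiles or more. These 250 held 893 diffuse tiles (16.5%). Neither end met a peak tile in 1995 stretches, 1 end did in 1497 and both ends did in 655. In unbroken blocks of tiles with 100 or more tags, the longest of which had 24 tiles, 2787 diffuse tiles (51.5%) shared their block with a peak tile.

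The longest stretch ran over 13 tiles, or 130 kb, at chromosome 11, 88170000 to 88299999. It held 373 tags with shSpt4, 330 with shSpt5 and 418 with shNelfE, against 471 with shControl, and its nearest peak tile was 2 tiles away. Single tiles in it had 6.04 to 15.9 normalised tags with shSpt4, 5.46 to 13.8 with shSpt5 and 8.85 to 16.0 with shNelfE, against 6.94 to 18.6 with shControl. Over the whole stretch the ratio to shControl was 0.948 for shSpt4 (0.826 to 1.09), 0.713 for shSpt5 (0.617 to 0.822) and 0.958 for shNelfE (0.837 to 1.09). In shSpt5 alone the interval lay below 1. One tile and a peak tile farther on, diffuse tiles resumed and included chromosome 11, 88370000 to 88379999, among the 10 with most tags.

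**Figure D3:**
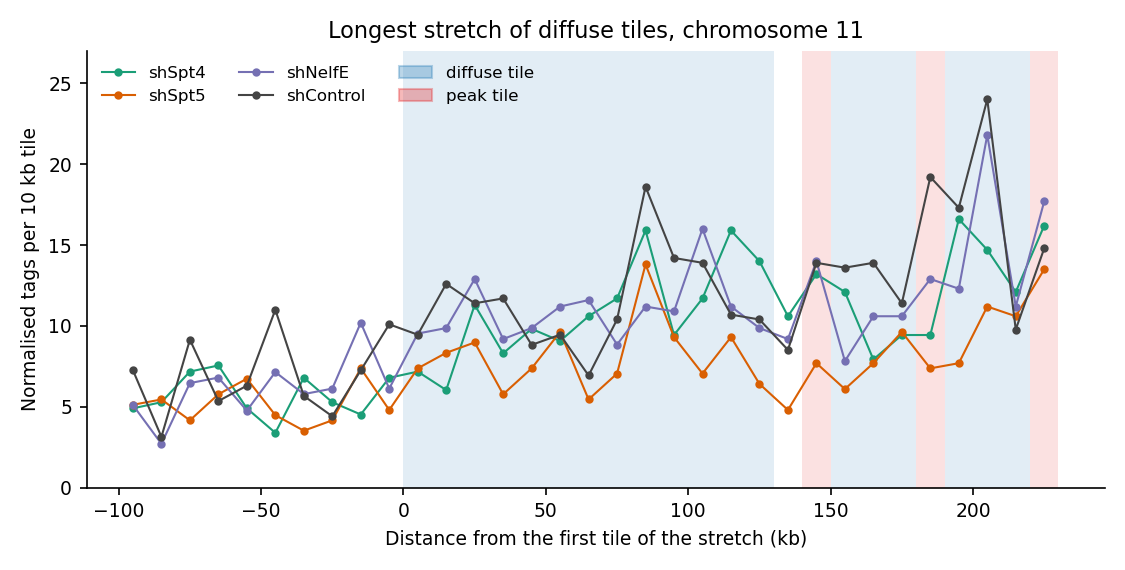
Normalised tags per 10 kb tile along the longest stretch of diffuse tiles and its surroundings, by distance in kb from its first tile. Lines are the 4 libraries, blue shading marks diffuse tiles and red shading peak tiles. The level within the stretch reaches 18.6 in shControl and 13.8 in shSpt5, with no tile standing out as a peak.

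The next stretches differed among themselves. At chromosome 8, 113510000 to 113589999, 8 tiles between peak tiles on both sides held 246 tags with shSpt4, 246 with shSpt5 and 261 with shNelfE, against 272 with shControl. Its ratios to shControl were 1.08 (0.908 to 1.29), 0.920 (0.771 to 1.10) and 1.04 (0.870 to 1.23), and none of the intervals excluded 1. At chromosome 12, 101310000 to 101389999, 8 tiles held 252 tags with shSpt4, 181 with shSpt5 and 247 with shNelfE, against 295 with shControl. Only the shSpt5 interval lay below 1 there, at a ratio of 0.624 (0.516 to 0.754), and shNelfE was at 0.903 (0.760 to 1.07). At chromosome 8, 90730000 to 90799999, 7 tiles held 235, 192, 255 and 321 tags in the same order of libraries, with shSpt5 at 0.608 (0.506 to 0.730) and the other intervals reaching 1. At chromosome 4, 147740000 to 147809999, 7 tiles held 179, 167, 205 and 316 tags. There all 3 knockdown libraries were below shControl, at 0.678 for shSpt4 (0.562 to 0.818), 0.538 for shSpt5 (0.443 to 0.651) and 0.700 for shNelfE (0.584 to 0.837).

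Over the 250 stretches of 3 tiles or more, the median ratio to shControl was 0.898 for shSpt4 (range 0.508 to 1.96), 0.763 for shSpt5 (0.304 to 1.56) and 0.948 for shNelfE (0.679 to 1.64). The ratio was below 1 in 191 of these stretches for shSpt4, 223 for shSpt5 and 158 for shNelfE. The 3 comparisons share the shControl library.

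Summed over all diffuse tiles, each knockdown library had fewer normalised tags than shControl. The ratio was 0.893 for shSpt4 (0.887 to 0.900), 0.796 for shSpt5 (0.791 to 0.801) and 0.947 for shNelfE (0.941 to 0.953). In tiles chosen on the 2 libraries outside each pair it was 0.883 (0.876 to 0.889) over 4856 tiles, 0.804 (0.797 to 0.812) over 3161 tiles and 0.948 (0.939 to 0.957) over 2754 tiles. The bin limit, rounded down, was 6 tags in the choice for shSpt4 and 5 tags for shSpt5 and shNelfE. These numbers of tiles are therefore not comparable. Peak tiles had lower ratios, at 0.855, 0.702 and 0.832, and ordinary tiles had ratios above 1, at 1.06, 1.15 and 1.08, in the same order. Scaled so that ordinary tiles were equal, the diffuse tiles were at 0.840 in shSpt4, 0.692 in shSpt5 and 0.875 in shNelfE. Peak tiles were then at 0.804, 0.610 and 0.769 in the same order. Diffuse tiles thus lay between peak and ordinary tiles in each comparison with shControl. A change of scaling moves all classes by the same factor and leaves this order as it is.

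A tile's tags include a level that ordinary tiles have too, which weighs more in a diffuse tile than in a peak tile. The comparison was therefore repeated on the tags above the ordinary mean of each library, an alternative chosen after seeing the data. Ordinary tiles were not shown to be free of Pol II. Above that level, diffuse tiles had 6.08 normalised tags with shSpt4, 4.71 with shSpt5 and 6.61 with shNelfE, against 7.47 with shControl, and peak tiles had 14.9, 11.2, 14.3 and 18.2 in the same order. For shSpt4 the ratio to shControl was 0.814 in diffuse tiles (0.805 to 0.823) and 0.815 in peak tiles (0.812 to 0.818). For shSpt5 it was 0.631 in diffuse tiles (0.623 to 0.638) and 0.616 in peak tiles (0.614 to 0.619). For shNelfE it was 0.884 in diffuse tiles (0.875 to 0.893) and 0.784 in peak tiles (0.781 to 0.787). These intervals are approximate ones for counting error, and those of shSpt5 did not overlap. With the DSIF hairpins diffuse and peak tiles were thus lower by nearly the same share, whereas with shNelfE the diffuse tiles were lower by a smaller share than the peak tiles.

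Tiles chosen on the 2 libraries outside the pair gave 0.794 in diffuse and 0.818 in peak tiles for shSpt4, 0.621 and 0.619 for shSpt5, and 0.885 and 0.793 for shNelfE. The shNelfE gap was therefore present in tiles that its own tags had not chosen, while for shSpt4 the diffuse tiles (0.785 to 0.804) were slightly below the peak tiles (0.815 to 0.821). With the bin limit rounded down, these choices held 17150 peak tiles for shSpt4, 22423 for shSpt5 and 21073 for shNelfE. The choice on all 4 libraries held 15664, so the peak tiles compared were not the same set. With the background taken from ordinary tiles beyond 10 tiles from a peak, or at the same distance from one, shNelfE stood at 0.884 and 0.883 in diffuse tiles, against 0.788 and 0.776 in peak tiles. No replicate exists to show how far such a gap varies between libraries of one group.

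**Figure D4:**
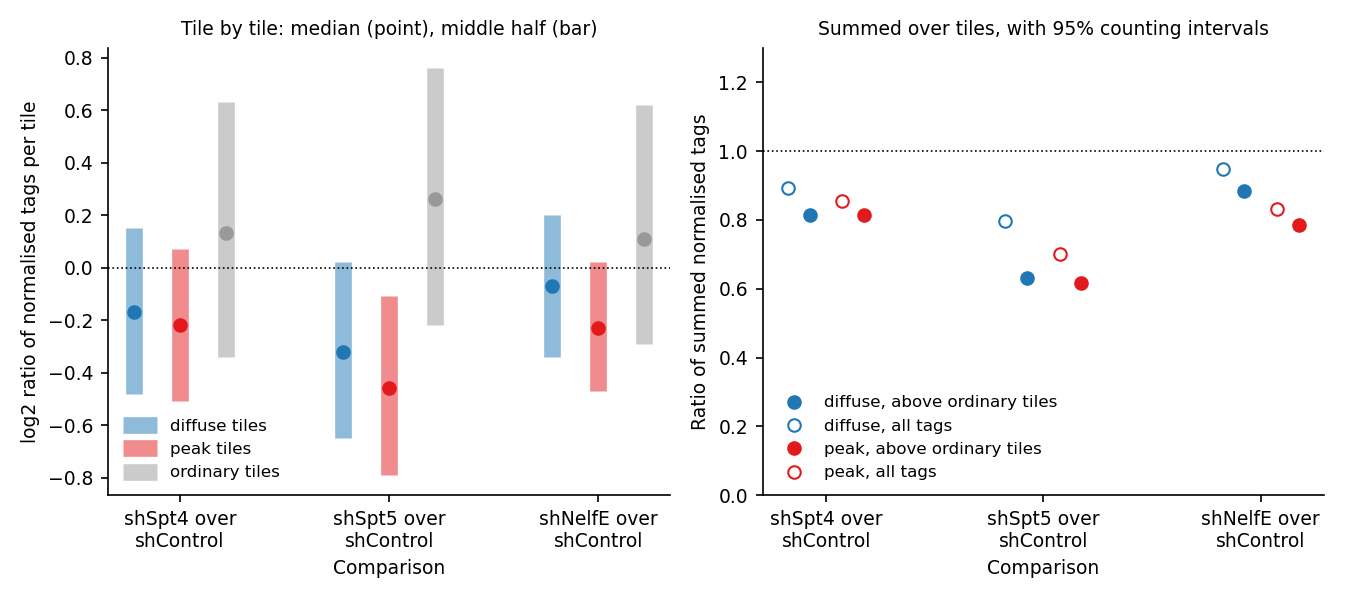
Knockdown libraries against shControl. Left, log2 ratios of normalised tags per tile, with the median as a point and the range from the lower to the upper quartile as a bar, for diffuse, peak and ordinary tiles. Right, ratios of tags summed over tiles, counting all tags (open) or only those above the ordinary mean (filled), with 95% counting intervals that are mostly smaller than the points. Above the ordinary mean, diffuse and peak tiles lie together for shSpt4 (0.814 and 0.815) and apart for shNelfE (0.884 and 0.784).

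Among the knockdown libraries, which share a run name and the number of passages, the comparison needs no control library. shNelfE had 1.06 times the normalised tags of shSpt4 in diffuse tiles (1.05 to 1.07) and 0.973 times in peak tiles (0.970 to 0.976). Above the ordinary mean these became 1.09 (1.07 to 1.10) and 0.962 (0.958 to 0.966), so shNelfE was above shSpt4 in diffuse tiles and below it in peak tiles. Against shSpt5, shNelfE had 1.19 times the tags in diffuse tiles (1.18 to 1.20) and 1.19 times in peak tiles (1.18 to 1.19). Above the ordinary mean the ratios of shNelfE to shSpt5 were 1.40 and 1.27. shSpt5 had 0.891 times the tags of shSpt4 in diffuse tiles (0.885 to 0.898) and 0.821 times in peak tiles (0.819 to 0.824), and 0.775 and 0.756 above the ordinary mean. The hairpins against the partners Spt4 and Spt5 thus went with different levels in diffuse tiles.

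Tile by tile, the median log2 ratio to shControl was -0.17 in shSpt4, -0.32 in shSpt5 and -0.07 in shNelfE, with a pseudocount of 0.5 tags. Of diffuse tiles, 64.3% were below shControl for shSpt4, 74.8% for shSpt5 and 57.5% for shNelfE. The medians in peak tiles were -0.22, -0.46 and -0.23, and those over ordinary tiles 0.13, 0.26 and 0.11. Single tiles scattered by 0.48, 0.50 and 0.40 (SD of the log2 ratios over diffuse tiles).

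Few single tiles passed the call, which asked for a ratio of at least 2 or at most 0.5 and an interval without 1, in tiles with at least 40 tags in the pair. The median tile's interval in shSpt4 had an upper end 3.07 times its lower end, so a single tile gave a wide interval at this depth. In shSpt4, 261 of 5386 tested diffuse tiles were called lower than shControl, or 4.85%, against 4.83% of all tiles tested, and 52 were called higher, or 0.965%, against 0.945%. In shSpt5, 522 of 5397 were called lower, or 9.67%, against 9.76% of all tiles tested, and 19 higher, or 0.352%, against 1.16%. In shNelfE, 81 of 5407 were called lower, or 1.50%, against 1.88%, and 25 higher, or 0.462%, against 0.901%. The shares called lower were close to those of all tested tiles and are no result about diffuse tiles. Called higher were 0.377% of tested peak tiles and 2.27% of tested ordinary tiles in shSpt5, and 0.199% and 1.82% in shNelfE. Of the 154358 ordinary tiles, 14278 reached 40 tags in the pair and were tested for shSpt5, and 13658 for shNelfE. A tile near that minimum could reach it because 1 library of the pair was high. Nearly all diffuse tiles were tested, so these shares are a description and rank no class of tiles. The shares of all tiles tested include these ordinary tiles.

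Between knockdown libraries the calls of diffuse tiles ran the same way as their sums. In shSpt5 against shSpt4, 338 of 5113 tested diffuse tiles were called lower, or 6.61%, against 5.27% of all tiles tested, and 82 higher, or 1.60%, against 1.75%. In shNelfE against shSpt4, 168 of 5288 were called higher, or 3.18%, against 2.53%, and 53 lower, or 1.00%, against 1.25%. In shNelfE against shSpt5, 394 of 5355 were called higher, or 7.36%, against 5.67%, and 31 lower, or 0.579%, against 1.26%. Calls did not follow the sums in every class. In shNelfE against shSpt4, 1.76% of tested peak tiles were called higher and 1.06% lower, at a summed ratio of 0.973. In shNelfE against shSpt5, 3.86% of tested ordinary tiles were called higher and 2.52% lower, at 0.941. The remaining comparisons of peak and ordinary tiles between knockdown libraries did follow their sums. The calls are thus a description. Between 9 and 303 diffuse tiles per comparison had too few tags to be tested.

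With ordinary tiles setting the scaling, the shares called lower than shControl were larger. They were 6.59% of tested diffuse tiles for shSpt4 (6.76% of all tiles tested), 17.5% for shSpt5 (17.9%) and 3.0% for shNelfE (3.76%). Called higher were 0.687% for shSpt4 (0.678%), 0.0185%, or 1 tile, for shSpt5 (0.531%) and 0.185% for shNelfE (0.422%). For shSpt5 over shSpt4, 9.11% were called lower (7.68%) and 0.997% higher (1.18%). For shNelfE over shSpt4, 2.89% were called higher (2.28%) and 1.17% lower (1.41%). For shNelfE over shSpt5, 9.51% were called higher (7.65%) and 0.299% lower (0.853%). The diffuse tiles again stayed near the share of all tiles for calls lower than shControl.

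The shSpt5 ratio varied with the level of the tile. Diffuse tiles of 100 to 109 tags (2141 tiles) had a ratio to shControl of 0.830 in shSpt5 (0.820 to 0.839), those of 110 to 129 tags (2146 tiles) 0.807 (0.798 to 0.816), and those of 130 tags or more (1129 tiles) 0.736 (0.726 to 0.746). In shSpt4 the ratios over the same classes were 0.893, 0.888 and 0.901, and in shNelfE 0.956, 0.944 and 0.939. Because the classes were cut on the pooled tags that the ratios also use, these values are a description.

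The ratios of diffuse tiles changed little with distance from a peak. From beside a peak tile to beyond 10 tiles, the ratio to shControl took values of 0.879, 0.905, 0.904 and 0.906 in shSpt4, of 0.791, 0.811, 0.786 and 0.795 in shSpt5, and of 0.948, 0.957, 0.936 and 0.925 in shNelfE. Over the same classes ordinary tiles had 0.981, 1.01, 1.03 and 1.15 in shSpt4, 1.04, 1.07, 1.08 and 1.29 in shSpt5, and 1.03, 1.04, 1.05 and 1.14 in shNelfE. Diffuse tiles beyond 10 tiles from a peak tile were thus about as low against shControl as those beside one. The ratio of ordinary tiles rose with distance. The tag minimum of the rule held diffuse tiles at a similar level, with a median of 115 pooled tags beside a peak tile and 110 beyond 10 tiles. Ordinary tiles fell from a median of 56 to 33 over the same classes. Distance and level cannot be told apart in this contrast between classes, which is a description.

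The tiles with most tags showed the same order of libraries in part. The tile at chromosome 8, 35280000 to 35289999, ranked first and had 75 tags with shSpt4, 27 with shSpt5 and 55 with shNelfE, against 75 with shControl. It was called lower in shSpt5 alone, at 0.366 of shControl (0.227 to 0.575). The tile at chromosome 13, 35870000 to 35879999, had 72 tags with shSpt4, 20 with shSpt5 and 65 with shNelfE, against 51 with shControl. It too was called lower in shSpt5 alone, at 0.399 (0.225 to 0.681). The tile at chromosome 14, 30000000 to 30009999, had 46 tags with shSpt4, 50 with shSpt5 and 55 with shNelfE, against 79 with shControl, and all 3 knockdown libraries were below shControl there, with an interval excluding 1 in shSpt5 (0.443 to 0.929). Of the 10 tiles with most tags, 7 lay directly beside a peak tile and none touched an enriched region. Their largest bins held 11 or 12 tags, at or next to the limit. A 250 bp window moved in steps of 50 bp held 12 to 15 tags in them, and over 12 in most.

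Some of the tiles with the lowest called ratios were called in 1 knockdown library and others in more. At chromosome 14, 20360000 to 20369999, shSpt5 had 8 tags, whereas shSpt4 had 37 and shNelfE 37, against 42 in shControl, and its ratio to shControl was 0.194 (0.0786 to 0.418). At chromosome 17, 47170000 to 47179999, shSpt4 had 8 tags, whereas shSpt5 had 36 and shNelfE 27, against 42 in shControl, a shSpt4 ratio of 0.228 (0.0925 to 0.492). At chromosome 1, 90950000 to 90959999, shNelfE had 14 tags and shSpt5 18, whereas shSpt4 had 28, against 47 in shControl. Both shNelfE, at 0.321 (0.163 to 0.594), and shSpt5, at 0.390 (0.213 to 0.684), were called lower at that tile.

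The highest called ratio lay on chromosome 8 for shSpt5 and for shNelfE. At chromosome 8, 125870000 to 125879999, shSpt5 had 45 tags, shSpt4 28 and shNelfE 26, against 11 in shControl, and the shSpt5 ratio was 4.16 (2.12 to 8.92). At chromosome 8, 125800000 to 125809999, shNelfE had 62 tags, shSpt4 46 and shSpt5 30, against 23 in shControl, with a shNelfE ratio of 2.91 (1.78 to 4.92). All 3 of the highest tiles in shNelfE were on this chromosome. At chromosome 9, 72710000 to 72719999, shSpt4 had 44 tags and shSpt5 29, whereas shNelfE had 16, against 13 in shControl, and the shSpt4 ratio was 4.05 (2.14 to 8.20). The shSpt5 ratio there, 2.27 (1.14 to 4.76), was among the 3 highest called for shSpt5. These tiles were picked as extremes, so their ratios are a description.

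Diffuse tiles were spread unevenly over the chromosomes. Chromosome 8 held 855 of them (15.8%), which was 6.88% of its tiles and 74.7 for every 100 peak tiles. Chromosome 11 followed with 566, or 4.78% of its tiles and 42.1 for every 100 peak tiles, and chromosome 1 with 563, or 2.95%. The lowest share was 0.766% on chromosome 3. On chromosome 8 the stretch from 120000000 to 129999999 alone held 260 diffuse tiles, or 26.2% of its tiles, with peak tiles at 18.1%. The rest of that chromosome had 5.20% diffuse and 8.44% peak tiles, and the next window of 10 Mb, on chromosome 1, held 117 diffuse tiles.

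The level of ordinary tiles, which hold none of the diffuse tiles, was also high on chromosomes 8 and 11. Relative to the median chromosome, their mean on chromosome 8 was 1.11 with shSpt4, 1.18 with shSpt5 and 1.12 with shNelfE, against 1.13 with shControl. On chromosome 11 it was 1.08, 1.12, 1.11 and 1.15 in the same order. The part of this level in the counts of diffuse tiles was not tested. On chromosome 1 the libraries differed, at 1.02 with shSpt4, 1.09 with shSpt5 and 1.00 with shNelfE, against 0.981 with shControl.

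The ratios did not come from 1 chromosome. The ratio of diffuse tiles to shControl was below 1 on 19 of 19 chromosomes in shSpt4, with the interval below 1 on 18, on 19 in shSpt5, with the interval below 1 on 19, and on 18 in shNelfE, with the interval below 1 on 15. In shSpt4 it ranged from 0.830 on chromosome 17 to 0.980 on chromosome 13, in shSpt5 from 0.716 on chromosome 14 to 0.880 on chromosome 1, and in shNelfE from 0.897 on chromosome 17 to 1.02 on chromosome 13.

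**Figure D5:**
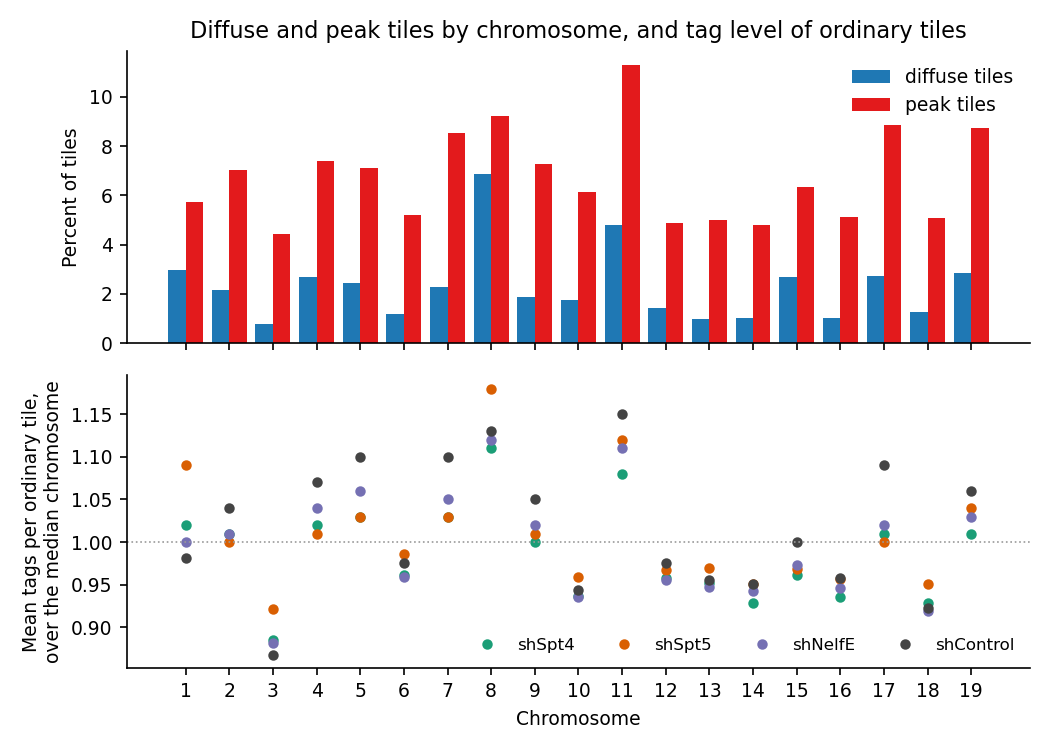
Top, percent of the tiles of each chromosome that were diffuse (blue) or peak tiles (red). Bottom, mean tags per ordinary tile relative to the median chromosome, with 1 point per library and an axis that does not start at 0. Chromosome 8 has the highest share of diffuse tiles (6.88%) and ordinary levels of 1.11 to 1.18, and chromosome 3 the lowest of both.

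Some readouts were not part of the rule. Tags on the plus strand made up 50.0% with shSpt4, 50.1% with shSpt5 and 50.0% with shNelfE, against 50.0% with shControl, so the strands were balanced as in ordinary and peak tiles. Repeated positions made up 7.75% of the reads in diffuse tiles with shSpt4, 18.2% with shSpt5 and 10.3% with shNelfE, against 8.48% with shControl. Ordinary tiles had 7.27, 17.5, 9.41 and 7.42% and peak tiles 10.3, 19.2, 12.4 and 12.1%, so shSpt5 had the most repeats in every class. Reads of a second category in the files, whose meaning the headers do not give, numbered 2.05 to 2.50 per 100 tags in diffuse tiles over the 4 libraries, 5.14 to 5.63 in ordinary tiles and 5.88 to 8.06 in peak tiles. The tags that the rule counts are the denominator of this share, so its values are a description, and their cause was not tested. Per tile the second category numbered 0.532 to 0.734 reads in diffuse tiles, 0.505 to 0.695 in ordinary tiles and 3.29 to 4.05 in peak tiles.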

How the data were processed

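Each deposited file listed aligned positions of reads, unscaled, with plus and minus signs for the 2 strands, as its header states. The authors used Bowtie on build mm8 (-e 70, -k 2, -m 2, -n 2, -l 36), per the file headers; tool and build also stand in the submitters' processing notes. The Bowtie version and any removal of duplicates by the authors are not given in the sources used here. Chromatin was sheared to about 500 bp and amplified over 18 PCR cycles, per the labels' protocols.

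From these positions, first-category reads were reduced to 1 tag per position and strand, moved 41 bp toward the fragment centre and summed in 10 kb tiles and 250 bp bins. Repeats made up 8.13% of the reads with shSpt4, 17.7% with shSpt5 and 10.2% with shNelfE, against 9.07% with shControl. Coordinates count positions as the files do. Ratio intervals come from the binomial distribution of the tags given their sum, and intervals above the ordinary mean from the delta method. Enriched regions were 250 bp windows on a 50 bp grid with a Poisson p of 1e-9 against the background within 5000 bp, in thinned and pooled libraries, merged within 500 bp. No p-value was computed between libraries. Python 3.11.15, NumPy 2.4.6, SciPy 1.17.1, pandas 2.3.3 and matplotlib 3.10.9 were used.

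The tiles named were the 10 with most normalised tags, the 5 longest stretches, the 3 highest and 3 lowest called ratios per knockdown and those next to each limit, and the most telling of these are printed. Members and classes were chosen with earlier results of these data known. Alternatives were all reads, a moving window, 120 tags, tiles moved by 5 kb, no neighbouring peak, scaling by ordinary tiles and choice on other libraries. Leaving out chromosome 8 and counting tags above the ordinary mean were added after seeing the data.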

Additional observations from a re-analysis of the deposited data

How the results depend on the processing

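No ratio, fold or call of a named tile changed direction under the alternatives run for it. The rule fixed in advance that folds would lie above 1, except where tiles were chosen on the other libraries. Calls of named tiles were run again only with every read counted and with scaling by ordinary tiles. Of the 18 named calls, all were kept when every read was counted, and 2 higher calls in shSpt5 fell under the limit of 2 when ordinary tiles set the scaling, chromosome 8 at 128820000 (1.98) and chromosome 9 at 72710000 (1.97). No paired analysis was possible because each group held 1 library. The depth left wide intervals for single tiles, and no difference between libraries has a replicate check. The cause of the following shifts was not tested.

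With every read counted, the rule would keep 7802 tiles. Over the 5416 tiles as chosen, the fold over ordinary tiles was then 2.19 in shSpt5, 2.78 in shNelfE and 3.18 in shControl. The ratio over diffuse tiles was then 0.806 for shSpt5 and 0.954 for shNelfE over shControl and 0.900 for shSpt5 over shSpt4, and the share called higher was 3.81% for shNelfE over shSpt4 and 8.43% for shNelfE over shSpt5. With no moving window over 12 tags, 4249 tiles were kept and the folds were 2.61, 2.16, 2.72 and 3.10 in shSpt4, shSpt5, shNelfE and shControl, and shSpt5 over shControl was 0.802.

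A minimum of 120 tags left 1935 tiles, with folds of 3.11, 2.43, 3.19 and 3.69 in the same order of libraries. The ratio was 0.757 for shSpt5 and 0.936 for shNelfE over shControl, 0.843 for shSpt5 over shSpt4, 1.04 for shNelfE over shSpt4 and 1.24 for shNelfE over shSpt5. Over shControl, 0.155% were called higher and 12.9% lower in shSpt5, and 1.14% lower in shNelfE. Between knockdowns, 0.729% were called higher and 9.17% lower for shSpt5 over shSpt4, 2.53% higher for shNelfE over shSpt4, and 9.10% higher and 0.310% lower for shNelfE over shSpt5. Tiles moved by 5 kb gave a fold of 3.16 in shControl and 2.68% called higher for shNelfE over shSpt4.

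The 3032 tiles with no enriched region and no peak tile beside them had folds of 2.62, 2.14, 2.70 and 3.08. Their ratio was 0.904 for shSpt4 over shControl, with 4.18% called lower, 0.883 for shSpt5 over shSpt4 and 1.05 for shNelfE over shSpt4. Scaling by ordinary tiles gave 0.840, 0.692 and 0.875 for shSpt4, shSpt5 and shNelfE over shControl, 0.824 for shSpt5 over shSpt4, 1.04 for shNelfE over shSpt4 and 1.26 for shNelfE over shSpt5. Under it 0.687% were called higher and 6.59% lower in shSpt4, 0.0185% and 17.5% in shSpt5, and 0.185% and 3.0% in shNelfE, all over shControl. Calls for shSpt5 over shSpt4 were then 0.997% higher and 9.11% lower, and those for shNelfE over shSpt5 9.51% higher and 0.299% lower.

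Choosing the tiles on the other libraries gave folds of 2.48, 1.97, 2.63 and 3.12. The ratio was 0.883 for shSpt4 and 0.804 for shSpt5 over shControl, 0.910 for shSpt5 over shSpt4 and 1.18 for shNelfE over shSpt5. Without chromosome 8, chosen after seeing the data, the fold was 2.65 in shSpt4 and 3.16 in shControl, and the ratio was 0.787 for shSpt5 over shControl, 0.882 for shSpt5 over shSpt4 and 1.20 for shNelfE over shSpt5. For tags above the ordinary mean, tiles chosen on the other libraries gave 0.794 for shSpt4 and 0.621 for shSpt5 over shControl and 1.43 for shNelfE over shSpt5. A background at the same distance gave 0.617 for shSpt5 over shControl, 0.754 for shSpt5 over shSpt4 and 1.43 for shNelfE over shSpt5, and one beyond 10 tiles from a peak gave 0.786 for shSpt5 over shSpt4.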
